A study of Mus musculus with 6 samples.

Results

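Chemokine and chemokine receptor genes were followed in LSK cells, bone marrow cells that lack lineage markers and carry cKit and Sca1, among which are the blood stem cells and the first progenitors. The 3 N1IC mice carried a lox-stop-lox N1-IC allele, from which Cre releases the intracellular, active part of the receptor Notch1, together with Mx1-cre. The 3 WT mice carried Mx1-cre alone, so the recombinase was present in both groups, and it is driven by the interferon-responsive Mx1 promoter in many cell types rather than in LSK cells only. PolyIC, which induces interferon, was injected 3 times in both groups (20 mcg/g, first at 21 days of age). Sorting followed 2 weeks after the final dose, when mice were 5 weeks old. One label names floxed Ncstn alleles for this treatment. The groups used here follow the titles and genotype labels, which name N1-IC. All 3 N1IC mice were female, and the WT mice were 2 males and 1 female, which was WT replicate 2. Members were the genes whose symbol marks them as a CC, CXC, XC or CX3C chemokine, a receptor of one, or an atypical receptor, and 54 of the 18193 genes measured met this rule, 33 ligands and 21 receptors. Another 13 genes that match the rule in the RefSeq gene table had no probe set of their own and were not analysed here, among them Ccl19 and the Ccl21 genes, whose probe sets are assigned to several genes.

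Chemokines are small secreted proteins that attract cells through G protein-coupled receptors. Ligands are named after the spacing of their first cysteines, and atypical receptors bind ligands without coupling to G proteins, and so remove or reshape the gradients. In the marrow, Cxcl12 from stromal cells holds stem and progenitor cells in place through Cxcr4, while Ccr7 and Ccr9 help progenitors to enter the thymus.

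Values are log2 probe set intensities, 1 Affymetrix array per sample, and p-values measure the spread between these samples. They compare arrays for the same probe set and do not rank one gene against another. Median linear intensity lay between 89.0 and 92.4 on the 6 arrays. Correlation over probe sets was between 0.99 and 0.992 among N1IC arrays, between 0.985 and 0.989 among WT arrays, and between 0.968 and 0.975 across the groups. The gene of the gate marker cKit, Kit, stood at 11.51 ± 0.06 in N1IC and 11.76 ± 0.18 in WT (SD, n = 3 each). The gene of Sca1 was not analysed here. Of 8 LSK and progenitor markers, 7 were measured and 5 were lower in N1IC. Their summed linear intensity lay between 16988 and 19383 in N1IC and between 28756 and 30433 in WT, and none was at 0. No detection calls were used, so values above 0, here and in later marker lists, do not show that a marker was detected. The platelet chemokines Pf4 and Ppbp, which the symbol rule does not take in, were 33.4-fold and 5.46-fold lower in N1IC (limma, adjusted p = 0.00112 and 0.00197). Of 7 megakaryocyte markers measured, 4 were lower, and their part in the result was not tested.

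One library stood apart within its group for many of these genes. WT replicate 1 was at least 1 log2 unit below the mean of the other WT arrays for 13 of the 54 members, or 24.1%, against 2.97% of all genes. For no member was it 1 unit above. Where a call turns on this array, the value without it is given too. The array was singled out on the members' own values. Leaving it out narrows the WT spread of members that were low on it. A call gained in that way is therefore not independent support.

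Of the 54 members, 1 was higher and 4 were lower in N1IC (limma, p adjusted by Benjamini-Hochberg over all genes, threshold 0.05). The ligand gene Cxcl10 rose, and the ligand gene Ccl9 and the receptor genes Ccr7, Cxcr2 and Xcr1 fell. These 5 are 9.26% of the members, while 11.8% of all genes were called, 3.47% as higher and 8.31% as lower. With all arrays the family was thus not called more often than genes at large. This turned on WT replicate 1: without it, 1 member was higher and 9 were lower, where 2.8% and 7.81% of all genes were called. Most members are dim, with 41 below the median level of all genes. Among the brighter 60% of genes, 1 of 23 members was higher and 2 were lower, where 19.5% of genes were called. The median log2 fold change of the members was -0.09, against -0.01 over all genes tested. The 3 N1IC arrays lay wholly above the WT arrays for 8 members and wholly below for 13, where 13.1% and 19.7% of all genes did so. At least a 2-fold difference was seen in 12 members, 1 higher and 11 lower, against 2.45% and 5.94% of all genes, and 7 of the 11 lower ones did not pass the test. In bulk samples, fewer cells of a type and less RNA per cell cannot be told apart.

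**Figure D1:**
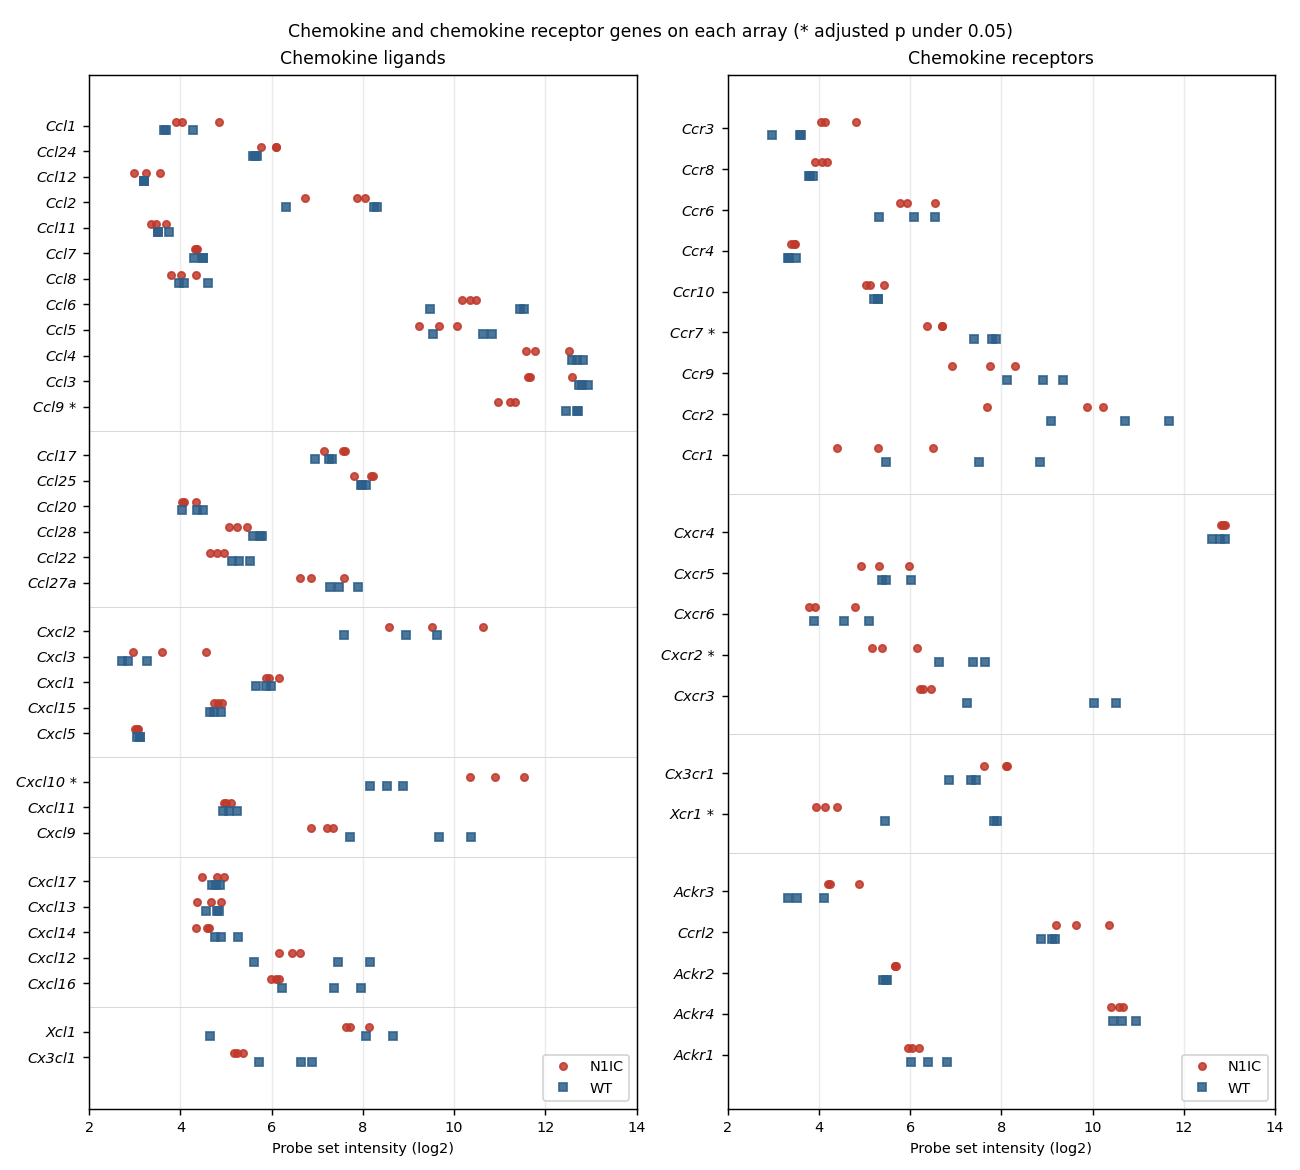
Log2 probe set intensity (horizontal axis) of each of the 54 genes on each array, with N1IC arrays as red circles above WT arrays as blue squares. Ligands are on the left and receptors on the right, grouped by role, and an asterisk marks the 5 genes with an adjusted p under 0.05.

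The interferon-inducible ligands are named for their strong induction by interferon, and they attract T cells and natural killer cells through the shared receptor Cxcr3. Cxcl10 stood at 10.90, 10.35 and 11.52 on the 3 N1IC arrays, against 8.16, 8.54 and 8.88 on the 3 WT arrays. The lowest N1IC array lay above the highest WT array, and the only female WT mouse lay between the males. The rise was 5.27-fold, 2.40 ± 0.33 on the log2 scale (SE, n = 3; limma adjusted p = 0.00895). The call held in all 6 fits that left out 1 array and was lost with sex as a covariate and in females alone (limma, adjusted p = 0.0967 and 0.0953). Of 9 macrophage markers measured, 2 were higher in N1IC and none lower. These were the complement genes C1qb, 4.03-fold higher, and C1qc, 3.27-fold higher (limma, adjusted p = 0.0372 and 0.0175). C1qb stood at 8.81, 8.32 and 9.73 in N1IC, against 7.08, 7.44 and 6.31 in WT. The rest of the list differed in sign and did not pass. Log2 fold changes were -1.04 for Cd68, -0.64 for Mrc1 and -0.50 for Vcam1. They were 1.43 for C1qa, 0.71 for Cd163, 0.38 for Marco and 0.02 for Adgre1. The summed intensity of the list lay between 1801 and 3521 in N1IC and between 1594 and 3307 in WT, none was at 0, and the part of these cells in the result was not tested.

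Cxcl9 had the opposite sign. It stood at 7.35, 6.87 and 7.20 in N1IC, against 7.72, 10.36 and 9.66 in WT. The groups did not overlap, but WT replicate 1 lay much nearer to the N1IC arrays than to the other WT arrays. The log2 fold change of -2.11 ± 0.66 (SE, n = 3) missed the threshold (limma, adjusted p = 0.1). Without WT replicate 1 it was -2.87, with an adjusted p of 0.00479 in that limma fit. The dimmer of 2 Cxcl9 probe sets had a log2 fold change of -1.08. Cxcl11, which RefSeq lists as a transcribed pseudogene in the mouse reference genome, stood between 4.96 and 5.10 in N1IC and between 4.93 and 5.25 in WT.

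The promoters of these 2 genes, which lie close together on chromosome 5, are shown because their fitted changes had opposite signs. The 250 bases before each start are from RefSeq on build GRCm38.p6, both on the minus strand, at chr5:92348890-92349139 for Cxcl10 and chr5:92328080-92328329 for Cxcl9. They are printed 5′ to 3′ along the gene, with motif matches in capitals.
Cxcl10: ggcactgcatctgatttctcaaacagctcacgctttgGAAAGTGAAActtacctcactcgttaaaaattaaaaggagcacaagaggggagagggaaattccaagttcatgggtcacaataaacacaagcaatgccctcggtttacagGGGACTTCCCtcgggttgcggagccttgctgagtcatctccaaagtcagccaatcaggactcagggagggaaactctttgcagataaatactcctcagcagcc
Cxcl9: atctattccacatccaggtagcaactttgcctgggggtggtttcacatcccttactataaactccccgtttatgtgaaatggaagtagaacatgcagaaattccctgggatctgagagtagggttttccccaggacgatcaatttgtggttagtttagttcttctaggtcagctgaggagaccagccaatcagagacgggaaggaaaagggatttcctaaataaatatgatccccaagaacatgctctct

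Both strands were searched for the interferon-stimulated response element (GAAA, any 2 bases, GAAA), an NF-kB motif (GGGA, any base, TT, any base, CC), and TGGGAA, the core bound by RBPJ, the DNA-binding partner of active Notch. In the Cxcl10 promoter the interferon motif matched 213 to 204 bases before the start and the NF-kB motif 103 to 94 bases before it, with no overlap, and the RBPJ core did not match. None of the 3 motifs matched in the Cxcl9 window. Of 32851 promoters, 2.98% held the interferon motif, 0.98% the NF-kB motif and 21.6% the RBPJ core. RefSeq promoters were at hand for 41 of the 54 members, of which 2 held the interferon motif, Cxcl10 and Cxcl14. The NF-kB motif was in 6, namely Cxcl1, Cxcl2, Cxcl3, Cxcl10, Ccr3 and Ccr6, and the neighbouring genes Cxcl1, Cxcl2 and Cxcl3 shared the same 10 letters, GGGAATTTCC. The RBPJ core was in 12 members, or 29.3%, and among the called genes with a promoter at hand, Cxcl10, Ccl9, Cxcr2 and Xcr1, only Cxcr2 held it. The 29.3% counts genes, and the 41 members had 47 promoters, while the 21.6% counts promoters, so the shares are not alike. In the Ccr3 and Ccr6 promoters an RBPJ match and an NF-kB match overlapped. A match describes letters in this window and is not a measured binding site.

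Among the 12 inflammatory CC ligands, which attract monocytes and other leukocytes, 1 fell and none rose. Over all genes, 8.31% were called as lower and 3.47% as higher. Ccl9, a ligand of Ccr1 made by myeloid cells, stood at 10.96, 11.34 and 11.22 in N1IC, against 12.71, 12.70 and 12.46 in WT. The arrays of each group lay close together and the groups were far apart. Ccl9 was 2.73-fold lower in N1IC, -1.45 ± 0.13 on the log2 scale (SE, n = 3; limma adjusted p = 0.00246). Its dimmer probe set had a log2 fold change of -1.95 and also passed. Ccl9 kept its call in every fit that left out 1 array, and it was the only member still called with sex as a covariate.

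Next to Ccl9 on chromosome 11 lie Ccl6, Ccl3 and Ccl4, and Ccl5 flanks the same run. Ccl3 and Ccl4 encode macrophage inflammatory proteins, which attract monocytes and T cells. Ccl3 stood at 11.66, 11.62 and 12.58 in N1IC, against 12.73, 12.81 and 12.94 in WT. Ccl4 stood at 11.77, 11.57 and 12.51 in N1IC, against 12.59, 12.69 and 12.83 in WT. In both, N1IC replicate 3 lay close to WT and the other N1IC arrays about 1 log2 unit lower. With all arrays the log2 fold changes were -0.87 for Ccl3 and -0.75 for Ccl4 and did not pass (limma, adjusted p = 0.0976 and 0.115). Without N1IC replicate 3 both passed, at -1.18 and -1.03. Leaving out any other array gave limma adjusted p between 0.152 and 0.235 for Ccl3 and between 0.166 and 0.268 for Ccl4.

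Ccl6 and Ccl5 were lower on WT replicate 1 than on the other WT arrays. Ccl6, an attractant of macrophages, stood at 10.35, 10.18 and 10.48 in N1IC, against 9.48, 11.53 and 11.44 in WT. The N1IC arrays thus lay between WT replicate 1 and the other WT arrays. Its log2 fold change was -0.48 with all arrays, and -1.15 (limma, adjusted p = 0.00729) without WT replicate 1. Ccl5, which attracts T cells and is itself made by them, stood at 10.06, 9.68 and 9.22 in N1IC, against 9.53, 10.82 and 10.63 in WT, with a log2 fold change of -0.67 and no call. Ccl6 and the genes Ccl2, Ccl1 and Ccl24 in this group were named after their values were seen.

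The other inflammatory CC ligands did not pass. Ccl2, the main ligand of Ccr2, stood at 7.87, 6.74 and 8.05 in N1IC, against 6.31, 8.31 and 8.23 in WT, so its spread within each group was larger than the difference of -0.07 between them. Of the 6 neighbours Ccl2, Ccl7, Ccl11, Ccl12, Ccl8 and Ccl1 on chromosome 11, none passed, and their log2 fold changes lay between -0.17 and 0.41. Ccl24, a ligand of the eosinophil receptor Ccr3, stood between 5.76 and 6.10 in N1IC and between 5.60 and 5.68 in WT. Among the fits that left out 1 array, only the one without N1IC replicate 1 called it as higher.

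None of the 6 homeostatic and tissue CC ligands, which guide cells in resting tissues, passed the test. Ccl25, the thymic and gut ligand of Ccr9, stood at 8.23, 7.81 and 8.19 in N1IC, against 7.96, 7.99 and 8.06 in WT. Ccl17, a ligand of Ccr4, stood between 7.15 and 7.61 in N1IC and between 6.96 and 7.31 in WT. The log2 fold changes of the group lay between -0.52 and 0.26. The N1IC arrays lay below the WT arrays for Ccl22, another ligand of Ccr4, and for the mucosal ligand Ccl28, with means lower by 0.51 and 0.45 log2 units (limma, adjusted p = 0.0634 and 0.0758). A less bright Ccl28 probe set had a log2 fold change of 0.08.

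Of the 5 CXC ligands that attract neutrophils, several of them through Cxcr2, none passed. Cxcl2 stood at 9.51, 8.58 and 10.63 in N1IC, against 7.60, 8.95 and 9.62 in WT. Each group spanned about 2 log2 units, more than the difference of 0.85 between the means. Cxcl1 stood between 5.88 and 6.16 in N1IC and between 5.67 and 5.98 in WT. Cxcl3, Cxcl15 and Cxcl5 overlapped between the groups as well, at log2 fold changes of 0.76, 0.07 and -0.06.

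Cxcl12, the ligand that retains stem cells, is made by marrow stroma. In these sorted cells it stood at 6.44, 6.17 and 6.61 in N1IC, against 5.61, 8.17 and 7.46 in WT. WT replicate 1 was the lowest of the 6 arrays and the other WT arrays the highest. The log2 fold change was -0.67 ± 0.63 (SE, n = 3) with all arrays, and -1.40 (limma, adjusted p = 0.0293) without WT replicate 1. A second probe set had a log2 fold change of -0.93, and the dimmest one stayed at 0.00. Of 12 marrow stroma and endothelium markers, 11 were measured. Pdgfrb was higher and Emcn lower in N1IC. Among the WT arrays, 7 of the 11 were lowest on WT replicate 1, as were 36.5% of all genes. The rest of the list did not pass and differed in sign, from -1.12 for Col1a2 to 1.38 for Col1a1. Lepr, Col3a1, Pdgfra and Kitl were dim, with means between 4.17 and 4.47 over all arrays. Summed linear intensity of the 11 lay between 4257 and 5363 in N1IC and between 3090 and 3659 in WT, and none was at 0. Most of this sum is Pdgfrb, at a mean log2 intensity of 11.77 in N1IC and 10.89 in WT. The part of these cells in the result was not tested.

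Cxcl16, a membrane-bound ligand of Cxcr6 made by dendritic cells and macrophages, stood at 5.97, 6.09 and 6.17 in N1IC, against 6.23, 7.97 and 7.36 in WT. WT replicate 1 lay just above the N1IC arrays. Its log2 fold change was -1.11 and not called with all arrays, and -1.59 (limma, adjusted p = 0.0112) without WT replicate 1. Cx3cl1, the membrane-bound ligand of Cx3cr1, stood at 5.18, 5.36 and 5.23 in N1IC, against 6.65, 5.71 and 6.89 in WT. The N1IC arrays lay together below all WT arrays, of which WT replicate 2, the female, was the lowest. Its log2 fold change of -1.16 came with a limma adjusted p of 0.0635, and 0.00534 without WT replicate 2. For Cx3cl1, leaving out any other array gave adjusted p between 0.135 and 0.168 in limma. Of its 4 probe sets, the dimmest was 0.42 lower in N1IC and the other two by 0.05 and 0.03. The remaining ligands Cxcl13, Cxcl14 and Cxcl17 had log2 fold changes between -0.45 and -0.03 and did not pass.

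**Figure D2:**
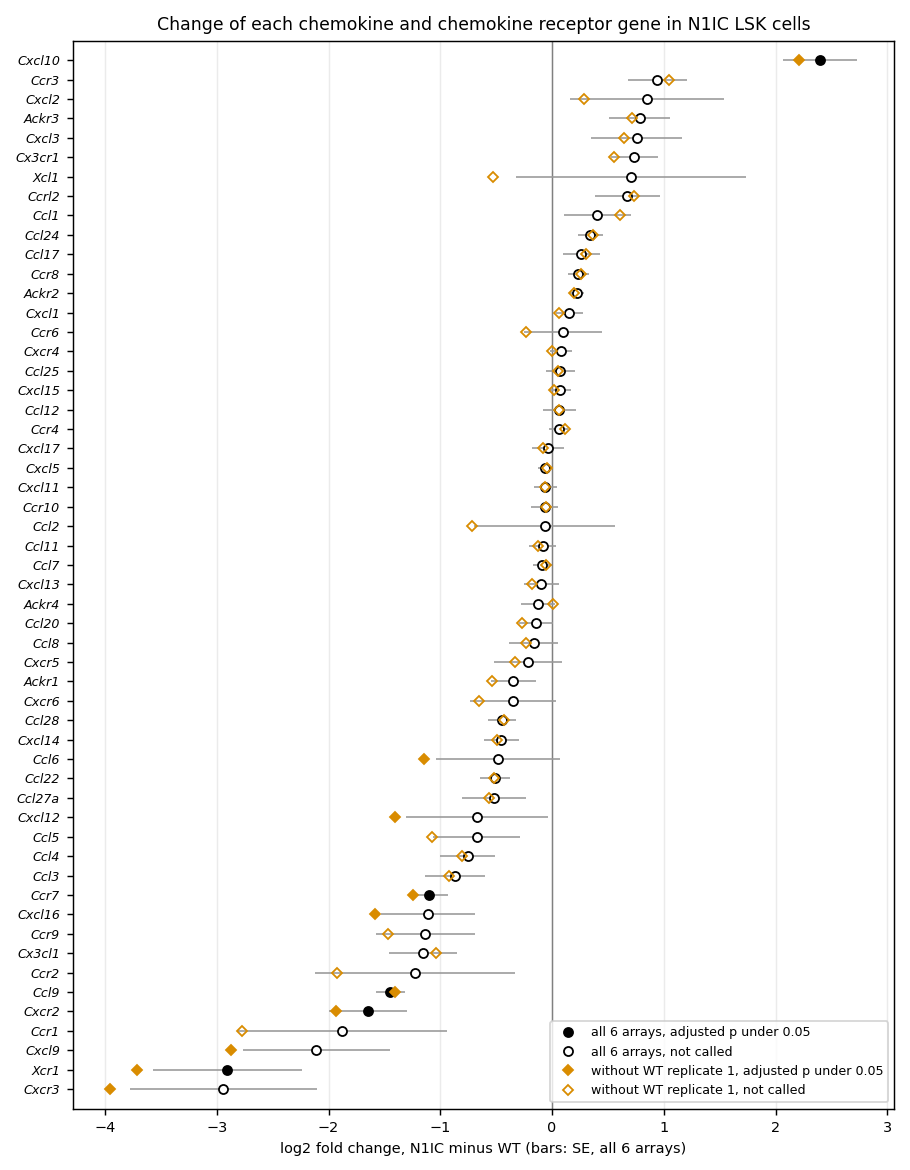
Log2 fold change, N1IC minus WT, of each of the 54 genes, sorted. Circles are the fit on all 6 arrays with SE bars and diamonds the fit without WT replicate 1, filled where the adjusted p is under 0.05. Without that array, Xcr1 and Cxcr3 were further below 0, and Ccl6, Cxcl12, Cxcl16, Cxcl9 and Cxcr3 passed in addition.

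Among the 9 CC receptors, 1 fell and none rose, where 8.31% of all genes were called as lower and 3.47% as higher. Ccr7, which carries T cells, dendritic cells and thymus-settling progenitors towards Ccl19 and Ccl21, stood at 6.70, 6.36 and 6.69 in N1IC, against 7.39, 7.79 and 7.88 in WT. The groups did not overlap. Ccr7 was 2.15-fold lower, -1.10 ± 0.17 on the log2 scale (SE, n = 3; limma adjusted p = 0.0118), and it was called in all 6 fits that left out 1 array. The call was lost with sex as a covariate and in females alone (limma, adjusted p = 0.0905 and 0.0616). Of 12 T-lineage markers measured, 8 were higher and none lower, with a summed linear intensity between 26856 and 33025 in N1IC and between 1244 and 3830 in WT. Of 7 B cell markers measured, 5 were lower, with a sum between 3467 and 3961 in N1IC and between 15974 and 25019 in WT, and the part of either cell type in the result was not tested.

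Ccr9, the receptor for Ccl25 on thymocytes and lymphoid progenitors, stood at 8.30, 7.74 and 6.93 in N1IC, against 8.12, 9.34 and 8.92 in WT. N1IC replicate 1 lay above WT replicate 1, so the groups overlapped. Its log2 fold change was -1.13 ± 0.44 (SE, n = 3; limma adjusted p = 0.171), and no fit that left out an array called it. The 3 brightest of its 5 probe sets had log2 fold changes between -1.23 and -0.57 and the other two 0.07 and 0.13.

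Ccr1 and Ccr2 varied widely within both groups. Ccr2, by which monocytes leave the marrow, stood at 7.68, 9.87 and 10.24 in N1IC, against 9.09, 11.66 and 10.71 in WT. Ccr1, a receptor for Ccl3, Ccl5 and Ccl9, stood at 4.40, 5.29 and 6.50 in N1IC, against 5.48, 8.84 and 7.51 in WT. For both genes the first replicate was the lowest array of its group and the groups overlapped. Their log2 fold changes of -1.23 for Ccr2 and -1.88 for Ccr1 did not pass (limma, adjusted p = 0.453 and 0.273).

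The other 5 CC receptors did not pass, and their log2 fold changes lay between -0.07 and 0.94. Ccr3, the eotaxin receptor of eosinophils and basophils, had the highest, at 4.05, 4.13 and 4.81 in N1IC, against 3.59, 3.61 and 2.97 in WT (limma, adjusted p = 0.0794). It was named after its values were seen. The N1IC arrays lay wholly above the WT arrays for Ccr3 and for Ccr8, a receptor of regulatory and type-2 helper T cells. For 13.1% of all genes they did so. Both receptor genes were dim, with only 9.52% and 10.6% of genes dimmer. No detection calls were used, so the size of these differences is uncertain.

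Cxcr4, the receptor through which Cxcl12 retains stem and progenitor cells in the marrow, did not pass the test. It stood at 12.89, 12.85 and 12.81 in N1IC, against 12.61, 12.79 and 12.91 in WT. All N1IC arrays lay within the range of the WT arrays. The log2 fold change was 0.08 ± 0.10 (SE, n = 3), and it lay between 0.00 and 0.15 in the fits that left out 1 array.

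Cxcr2, the receptor by which neutrophils follow ligands such as Cxcl1 and Cxcl2, stood at 5.17, 5.39 and 6.16 in N1IC, against 6.64, 7.64 and 7.37 in WT. The groups did not overlap, and the gene was 3.13-fold lower in N1IC, -1.65 ± 0.35 on the log2 scale (SE, n = 3; limma adjusted p = 0.0351). The call was lost without N1IC replicate 1, N1IC replicate 2, WT replicate 2 or WT replicate 3, at adjusted p between 0.0938 and 0.111 in those limma fits. Of 12 neutrophil and monocyte markers, 10 were measured and 1, Cd14, was lower, and their summed linear intensity lay between 25372 and 37023 in N1IC and between 31262 and 74876 in WT. No marker was at 0, and the part of these cells in the result was not tested.

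Cxcr3, the receptor of activated T cells and natural killer cells for Cxcl9 and Cxcl10, stood at 6.22, 6.29 and 6.46 in N1IC, against 7.24, 10.52 and 10.04 in WT. The N1IC arrays lay below every WT array, and WT replicate 1 lay about 3 log2 units below the other WT arrays. With all arrays the log2 fold change of -2.94 ± 0.84 (SE, n = 3) came with a limma adjusted p of 0.0802. Without WT replicate 1 it was -3.96 (limma, adjusted p = 0.000937). Leaving out any other array instead gave adjusted p between 0.172 and 0.211 in limma. Cxcr5 and Cxcr6, receptors of follicular and tissue-resident lymphocytes, overlapped between the groups, at log2 fold changes of -0.22 and -0.35.

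Xcr1, the receptor of cross-presenting dendritic cells, also fell. It stood at 3.93, 4.40 and 4.12 in N1IC, against 5.45, 7.89 and 7.83 in WT, with a log2 fold change of -2.91 ± 0.67 (SE, n = 3). The N1IC values are dim and no detection calls were used, so the size of the fall is uncertain. Its limma adjusted p of 0.044 became 0.000805 without WT replicate 1, and it lay between 0.102 and 0.131 when any other array was left out. Of 11 dendritic cell markers, 9 were measured and 1, Irf8, was lower. The rest of the list did not pass and differed in sign. Log2 fold changes were 0.64 for Itgax and 0.62 for Bst2, and lay between -2.32 and -0.39 for the others. Summed linear intensity of the list lay between 10965 and 15937 in N1IC and between 14712 and 44639 in WT. No dendritic cell marker was at 0, and the part of these cells in the result was not tested.

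Xcl1, the ligand of Xcr1 that natural killer and activated T cells secrete, stood at 7.64, 8.14 and 7.72 in N1IC, against 4.65, 8.66 and 8.07 in WT. WT replicate 1 alone lay far from the other 5 arrays. The log2 fold change was 0.71 ± 1.03 (SE, n = 3) with all arrays and -0.53 without WT replicate 1, and neither passed. Cx3cr1, the receptor of monocytes and macrophages for Cx3cl1, stood at 8.10, 8.13 and 7.61 in N1IC, against 6.86, 7.44 and 7.34 in WT. The N1IC arrays lay above the WT arrays, but the log2 fold change of 0.73 ± 0.21 (SE, n = 3) missed the threshold (limma, adjusted p = 0.0825).

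None of the 5 atypical receptors passed. The N1IC arrays lay wholly above the WT arrays for 3 of them, where 13.1% of all genes did so. Ackr3, which scavenges Cxcl12, stood at 4.87, 4.24 and 4.19 in N1IC, against 3.52, 3.33 and 4.11 in WT, a log2 fold change of 0.78. It was dim, as only 12% of genes were dimmer. Ccrl2, a non-signalling receptor that presents chemerin, stood at 9.20, 9.63 and 10.35 in N1IC, against 9.16, 8.87 and 9.12 in WT, a log2 fold change of 0.67. Ackr2, a scavenger of inflammatory CC chemokines, was 0.22 higher (limma, adjusted p = 0.1). Its dimmer probe sets had log2 fold changes of -0.04 and 0.23. Ackr4, which takes up Ccl19, Ccl21 and Ccl25, stood between 10.39 and 10.67 in N1IC and between 10.45 and 10.94 in WT. Another Ackr4 probe set had a mean of 10.61 over all arrays and a log2 fold change of -0.20. The dimmest had a mean of only 4.41 and a log2 fold change of 0.02. Ackr1, the erythroid and endothelial chemokine sink, stood between 5.95 and 6.19 in N1IC and between 6.02 and 6.80 in WT.

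**Figure D3:**
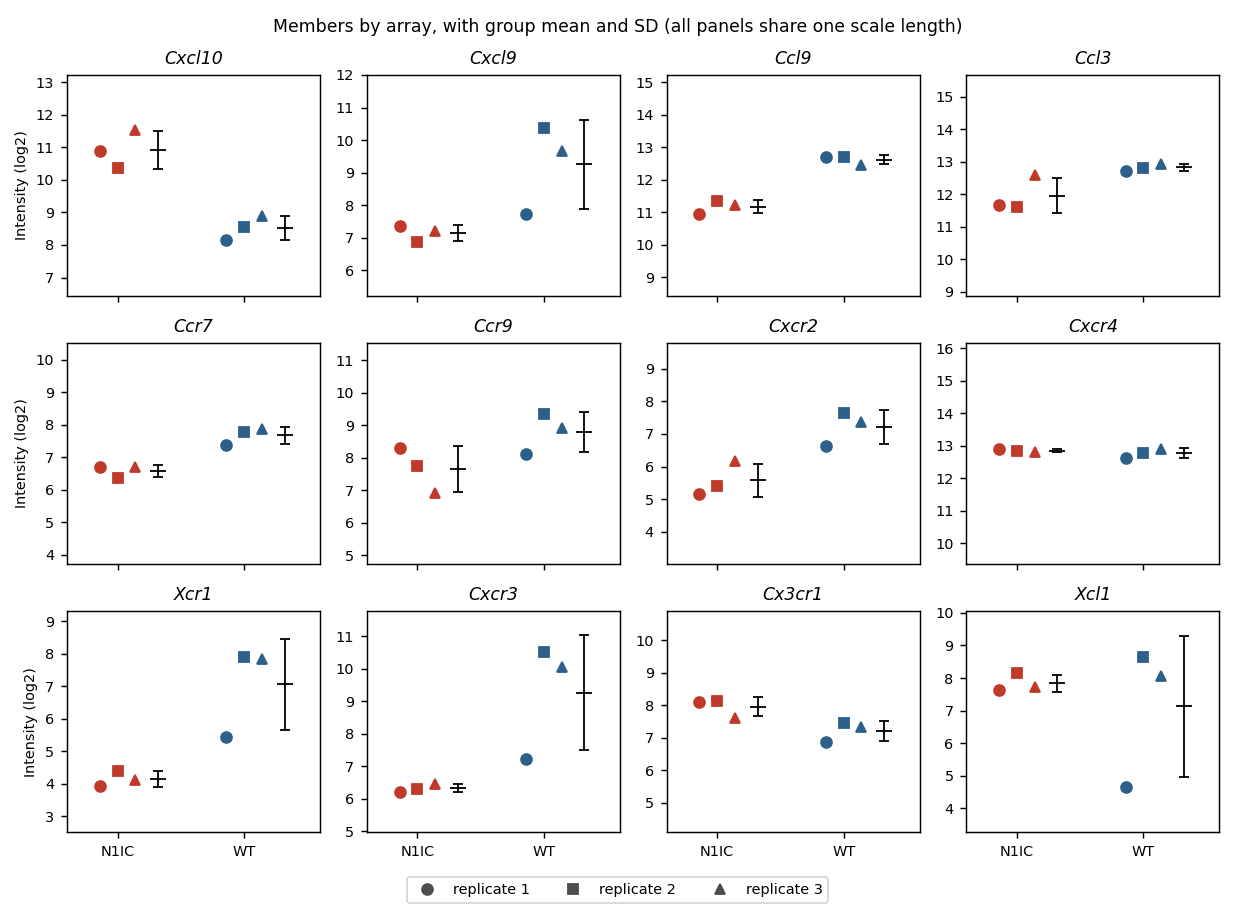
Log2 intensity of 12 members by array, N1IC in red left of WT in blue, with marker shape for the replicate number and a black bar for the group mean and SD. Cxcl10 lies higher in N1IC and Cxcl9, Ccl9, Ccr7, Cxcr2, Xcr1 and Cxcr3 lower, Cxcr4 overlaps, and WT replicate 1 (circle) lies apart from the other WT arrays for Cxcl9, Xcr1, Cxcr3 and Xcl1.

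The members for which WT replicate 1 was at least 1 log2 unit below the other WT arrays were Xcl1, Cxcr3, Ccr1, Xcr1, Cxcl9, Cxcl12, Ccr2, Ccl6, Ccl2, Cxcl2, Cxcl16, Ccl5 and Ccr9. The gap was 3.71 for Xcl1, 3.04 for Cxcr3 and 1.01 for Ccr9. Most markers of several mature cell types were low on the same array. Taking the median of each list, WT replicate 1 minus the mean of the other WT arrays was -2.67 for 7 natural killer cell markers, -1.61 for 9 dendritic cell markers, -1.56 for 10 neutrophil and monocyte markers and -1.37 for 8 mast cell, basophil and eosinophil markers. It was -1.05 for 12 T-lineage markers, -0.51 for 7 B-lineage markers, -0.51 for 9 macrophage markers, -0.50 for 7 megakaryocyte markers and -0.26 for 11 stroma and endothelium markers. Within these lists some genes were higher on WT replicate 1, such as the B cell gene Ms4a1 by 2.09 and the macrophage gene C1qa by 0.53. For 7 LSK and progenitor markers the median was -0.03. The part of these cells in the members' values was not tested. Without WT replicate 1, Ccr1, Ccr2, Ccl5, Ccr9 and Ccl2 had log2 fold changes of -2.78, -1.92, -1.07, -1.47 and -0.72, against 0.29 for Cxcl2, and none of these passed.

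Summed linear intensity of the natural killer list, of which 7 of 8 genes were measured, lay between 15764 and 23141 in N1IC and between 8290 and 12483 in WT, and 1 gene, Nkg7, was called as higher. The other members differed in sign: the log2 fold change was 3.96 for Gzma, against -1.31 for Ncr1, -1.79 for Klrk1, -1.74 for Klrd1 and -1.74 for Eomes, and none of these passed. Without WT replicate 1, 1 member was higher and 9 were lower, where 2.8% and 7.81% of all genes were called. The 5 genes called with all arrays were among these, joined by Ccl6, Cxcl9, Cxcl12, Cxcl16 and Cxcr3. No fit that left out a different single array called any of the genes that joined.

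**Figure D4:**
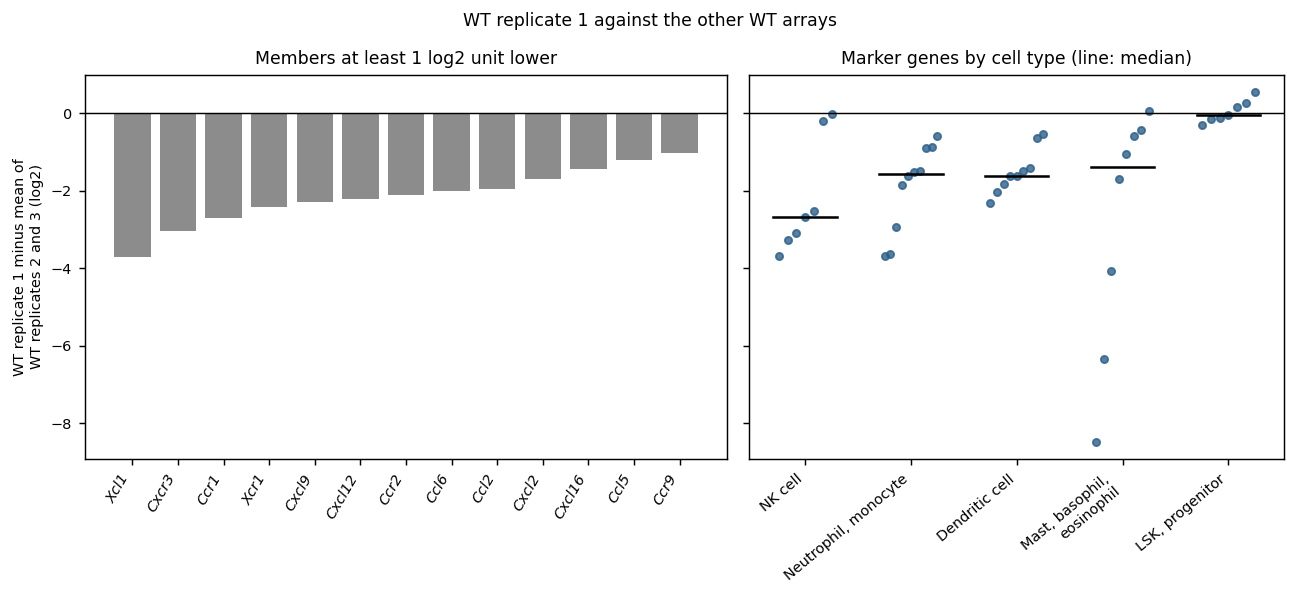
WT replicate 1 minus the mean of WT replicates 2 and 3 (log2) for the 13 members that were at least 1 unit lower (bars, left) and for marker genes of 5 lists (points, right, with the list median as a line). The natural killer, neutrophil and monocyte, dendritic, and mast cell, basophil and eosinophil lists lie mostly below 0, and the LSK and progenitor list lies around it.

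Genes that carry the signal of chemokine receptors were read from a list of 47, of which 45 were measured. Here 2 were higher and 10 lower in N1IC, or 26.7%, against the 11.8% of all genes given above, with a median log2 fold change of -0.15. Most of the list is bright, and among the brighter 60% of genes alone 27.9% of its 43 members and 19.5% of all genes were called. Subunits of G proteins were among those that fell. Gng11, a gamma subunit, stood at 7.18, 6.93 and 7.14 in N1IC, against 10.20, 9.71 and 10.58 in WT. It was 8.46-fold lower, with a log2 fold change of -3.08 ± 0.22 (SE, n = 3). Gng12, another gamma subunit, fell by 0.97, the inhibitory alpha subunit gene Gnai1 by 1.07 and the alpha subunit gene Gnaq by 0.78 on the log2 scale.

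Of 12 genes that end the signal, namely arrestins, receptor kinases and RGS regulators, 4 fell and none rose. The 8 that did not pass had log2 fold changes between -0.22 and 0.59. Over all genes 8.31% were lower. Of the 10915 genes in the brighter 60%, 1491 were lower, and 19.5% were called in either direction. These genes are part of the list above and were not among the groups set in advance. Arrb1, which encodes a beta-arrestin that uncouples receptors, fell by 1.12 on the log2 scale, and Grk5, a kinase that marks receptors for arrestin, fell by 1.22. Rgs14 and Rgs18, regulators that speed the shut-off of G proteins, fell by 0.94 and 0.76. Tpst1, which adds sulfate to tyrosines of chemokine receptors, fell by 1.45, and the phospholipase gene Plcb2 fell by 0.75. Adjusted p for these 10 genes lay between 0.00132 and 0.038 in limma. For all 10, the N1IC arrays lay wholly below the WT arrays, which rests on the same values as the calls and adds no separate support.

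Dpp4, the peptidase that inactivates Cxcl12 and other chemokines, rose, at 13.38, 13.35 and 13.34 in N1IC, against 12.65, 12.93 and 12.81 in WT. Its log2 fold change was 0.56 ± 0.09 (SE, n = 3). Gnai3, another inhibitory alpha subunit gene, was 0.35 higher (limma, adjusted p = 0.0487). Each time 1 array was left out, 0 or 1 gene of the list was called as higher and 8 to 10 as lower, and with sex as a covariate 0 were higher and 3 lower.

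Since every N1IC mouse was female, sex and group can only be separated through WT replicate 2. With sex as a covariate, which sets the N1IC arrays against that array alone, no member was higher and 1, Ccl9, was lower, and Cxcl10, Ccr7, Cxcr2 and Xcr1 had log2 fold changes of 2.39, -1.20, -2.06 and -3.75 with adjusted p between 0.0905 and 0.118 by limma. The number of lower members was 2 without N1IC replicate 1, N1IC replicate 2 or WT replicate 3, and 5 without N1IC replicate 3, and 2 members were higher without N1IC replicate 1.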

How the data were processed

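The deposited intensity values are probe set summaries on a linear scale, made by the authors with RMA, per the submitters' processing notes. The sources used here give no RMA settings. Per the labels' protocols, 5 ng of total RNA was amplified before labelling, which can widen the spread of dim genes. Log2 was taken before any test. Of 45101 probe sets, 34945 had 1 gene symbol, updated through RefSeq of assembly GRCm38.p6 (34741 matched), and 932 had several. Each of 18193 genes was represented by its probe set with the highest mean over the 6 arrays, with no filter on dim genes and no detection calls.

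The contrast N1IC minus WT was fitted in limma (version 3.58.1, R version 4.3.3, data.table package version 1.17.8) with a two-sided test and no covariate. P-values were adjusted by Benjamini-Hochberg over all genes, with 0.05 as the limit for a call. Residual degrees of freedom were 4, and the moderation added 2.05. On simulated data with 200 of 18193 genes changed, calls recovered 64% of the changes of log2 size 1 and 88% of those of size 2, beside 10 false calls. The changed genes were drawn at random and were fewer than the 2144 genes called in the real data. These rates therefore do not give the power for the members, some of which spread widely within a group. Members and lists were chosen with earlier results of these data known. Text names called members, 12 genes fixed by name, the 2 brightest of each role, members differing at least 2-fold and called signalling genes; all other members were chosen for naming once values were known. The labels do not say which mice were littermates, and the number of arrays limits precision. Plots used matplotlib 3.10.9, Python 3.11.15 and pandas 2.3.3. Alternatives are given in the closing section.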

Additional observations from a re-analysis of the deposited data

How the results depend on the processing

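Of the member counts, 1 higher and 4 lower with all arrays, repeated quantile normalization, median centring and the mean of all probe sets gave the same counts and the same 5 genes. With each probe set on its own 1 was higher and 3 lower, and with an intensity trend 1 and 5. Only the brighter 60% of genes left 23 members to test, of which 1 was higher and 2 were lower, with a median log2 fold change of -0.52 against -0.09 for all 54. A sex covariate gave 0 higher and 1 lower, and the females alone 0 and 7; these fits have 1 WT female, WT replicate 2. Leaving out 1 array gave 1 to 2 higher, 2 to 9 lower and a median between -0.23 and -0.05. The cause of these differences was not tested.

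For the signalling list, 2 higher and 10 lower, a sex covariate gave 0 higher and 3 lower, as did the females alone, 1 was higher with quantile normalization, median centring or each probe set on its own, and leaving out 1 array gave 0 to 1 higher and 8 to 10 lower. With the replicate number as a replicate block, 0 signalling genes were higher, and 1 member was higher and 3 were lower. Deviations of same-numbered arrays correlated at -0.09, -0.07 and 0.07, so the numbers were not taken as pairs.

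Signs turned for Xcl1, at -0.83 under the sex covariate and among females alone. Leaving out 1 array gave -0.53 (without WT replicate 1) to 1.47 for Xcl1, -0.0063 (without N1IC replicate 1) to 0.20 for Ccl25, and -0.24 to 0.0085 (without WT replicate 1) for Ackr4. None of these 3 genes passed in any fit.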
